A study of Mus musculus with 20 samples.

Results

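The 8 genes Th, Ddc, Dbh, Adrb1, Adra1a, Adra1b, Grk5 and Chrm2, which cover catecholamine synthesis and the receptors through which autonomic nerves act on the heart, were followed in 20 RNA sequencing libraries of Taz-KD and WT mice. They were chosen by symbol with earlier results of these data known, and were found through their Ensembl identifiers. All 8 were rows of both deposited tables, which hold 47069 genes for heart and 53801 for skeletal muscle. Dbh was picked for its large fall in these same hearts, so its heart values are given as a description with no test. WT mice were C57BL/6N, and Taz-KD mice carried ROSA26H1/tetO-shRNA:TAZ, a hairpin RNA against Taz that doxycycline switches on. Taz encodes tafazzin, which remodels the mitochondrial lipid cardiolipin. The chow of WT and Taz-KD mice alike held doxycycline (625 mg/kg) until they were 20 weeks old. There were 5 WT and 5 Taz-KD hearts and 5 WT and 5 Taz-KD femur muscles, each library from its own mouse, so that the tissues came from different animals. The H1 promoter is active in most cell types, so the knockdown was not limited to muscle cells, and an effect that starts in nerves or other organs cannot be told apart from one that starts in the myocytes. Carrying the transgene and losing Taz also cannot be told apart, since no Taz-KD mouse without doxycycline is among the samples used.

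Sympathetic nerves make noradrenaline from tyrosine in a chain of enzymes. Tyrosine hydroxylase (Th) makes L-DOPA, the decarboxylase Ddc makes dopamine, and dopamine beta-hydroxylase (Dbh) makes noradrenaline inside the storage vesicle. Noradrenaline acts on cardiac myocytes through the beta1 receptor (Adrb1), which couples to cyclic AMP, and through the alpha1 receptors (Adra1a, Adra1b), which couple to Gq and phospholipase C. G protein-coupled receptor kinase 5 (Grk5) phosphorylates occupied receptors and so desensitises them. The vagus nerve slows the heart through the muscarinic M2 receptor (Chrm2), which lowers cyclic AMP and opens a potassium channel. The cell bodies of sympathetic nerves lie in ganglia outside the heart, so that a heart sample holds their fibres but few of their nuclei.

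Total counts ran from 26963288 to 30090918 in WT hearts and from 30248445 to 35301909 in Taz-KD hearts, so that every Taz-KD heart was sequenced deeper than every WT heart. In muscle they ran from 36429399 to 61100247 in WT and from 46985694 to 74361382 in Taz-KD. Taz fell to 30.8% of the WT mean in heart (log2 fold change -1.70, standard error (SE) 0.062, adjusted p = 4.08e-09, edgeR) and to 26.0% in muscle (-1.94, SE 0.084, adjusted p = 1.86e-06, edgeR). Some libraries stood apart in marker genes. The summed adipocyte markers were 44.3 CPM (each count divided by its library total, which TMM factors had corrected for composition) in WT heart R3 and 122 CPM in Taz-KD heart R1793, against medians of 14.5 in WT and 20.2 in Taz-KD. In WT muscle A33 the adipocyte sum was 1181 CPM against a median of 217. WT muscle A55 had the highest summed Schwann cell markers, at 921 CPM, and the lowest summed skeletal muscle markers. The hearts held cardiomyocyte markers at 33226 to 45798 CPM, and the muscles held skeletal muscle markers at 62987 to 185483 CPM.

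Short stretches of 3 promoters are shown because the cyclic AMP response element (CRE, TGACGTCA) is the element through which cyclic AMP acts on many genes, Th among them. The sequences are from RefSeq on GRCm38.p6, whose promoter table matched 7 of the 8 genes. Adra1a had no entry. Both strands were searched from 250 bases before to 50 bases after each RefSeq start, and capitals mark the match to the CRE or to its core TGACG, which on the opposite strand reads CGTCA. Every CRE also holds the core.
Th, chr7:142900022-142900051, minus strand, CRE 45 bases before the start, in an intron of the GENCODE gene model: cagaggggcttTGACGTCAgcctggccttt
Dbh, chr2:27165273-27165301, plus strand, core on the opposite strand 222 bases before the start, in an exon of the longer GENCODE gene model: gtttccaacaggCGTCAgagatttgttgg
Adrb1, chr19:56722015-56722043, plus strand, core 90 bases before the start, outside the GENCODE gene model: gctgcgggagccTGACGcgcggccccggg
Of 32851 promoter windows in the table, 1.79% held the CRE and 20.8% the core. Neither motif was matched in the windows of Ddc, Adra1b, Grk5 and Chrm2. The letters TGATGNAA, CACGTG and TATAAA were searched in the same way and are in 3.97%, 7.15% and 13.6% of all windows. Of these, 1 match was found, of TATAAA on the opposite strand of one Ddc window. These matches describe letters and are no evidence of binding.

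Among the enzymes, Dbh and Ddc were lower in Taz-KD hearts while Th was scarcely read in either genotype. Th (ENSMUSG00000000214, chr7:142892752-142931128, minus strand) had 3, 1, 0, 0 and 0 counts in the WT hearts R3, R1791, R1792, R1795 and R1800, and 0, 2, 2, 0 and 0 counts in the Taz-KD hearts R2, R1793, R1796, R1797 and R1798. The totals were 4 against 4 counts, a ratio of 0.881 with a 95% counting interval from 0.164 to 4.73, so a difference of Th was not detectable at this depth. Such intervals cover counting error only.

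Dbh (ENSMUSG00000000889, chr2:27165233-27183200, plus strand) measured 2.06, 1.92, 0.965, 0.735 and 0.833 CPM in the WT hearts in that order. In the Taz-KD hearts it measured 0.249, 0.214, 0.175, 0.0628 and 0.278 CPM. No Taz-KD heart reached the lowest WT heart, and WT hearts R3 and R1791 stood above the other WT hearts. The counts behind these values were 21 to 64 in WT and 2 to 9 in Taz-KD, lower in the more deeply sequenced group. The Taz-KD mean was 15.0% of the WT mean (0.196 ± 0.0836 against 1.30 ± 0.634 CPM; SD, n = 5), a fitted log2 fold change of -2.71. These are the values for which Dbh was picked. In bulk tissue, fewer cells that hold an RNA and less of it per cell cannot be told apart, here and for every gene below.

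Ddc (ENSMUSG00000020182, chr11:11814101-11898144, minus strand) was read far more often than Th. Its levels were 7.89, 8.95, 6.37, 5.50 and 7.94 CPM in the WT hearts and 4.88, 1.34, 0.874, 2.54 and 3.67 CPM in the Taz-KD hearts. The genotypes did not overlap, and R1793 and R1796 were the lowest Taz-KD hearts. Ddc fell in Taz-KD hearts (log2 fold change -1.46, SE 0.39, adjusted p = 0.0200, edgeR; 36.3% of the WT mean). It no longer passed without the hearts R3 and R1793 that stood apart (log2 fold change -1.27, adjusted p = 0.0643, edgeR), nor without a filter on low counts (adjusted p = 0.0625), and its adjusted p over all alternatives ran from 3.50e-04 to 0.0643.

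Of all 19486 genes tested in heart, 24.6% passed the test, 10.3% as lower in Taz-KD and 14.4% as higher, and in 18.3% the libraries of the genotypes did not overlap. Of the 6 members tested apart from Dbh 4 passed, with Ddc, Adra1a and Adra1b lower and Grk5 higher, and all 4 did not overlap. The members were chosen with earlier results of these data known, so their count is a description and no test against those shares. The median log2 fold change of all tested genes was -0.016. Every count of listed heart genes below is to be read beside these shares. The plot of the members in heart shows each mouse.

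**Figure D1:**
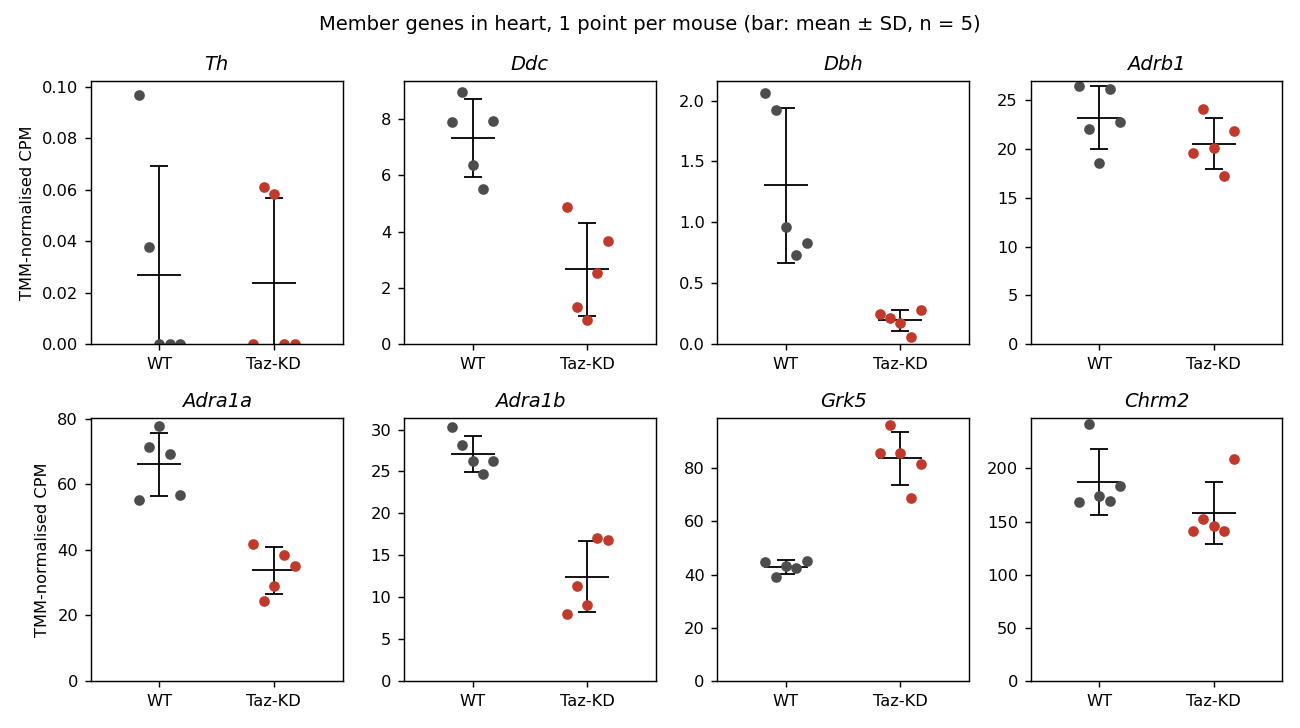
TMM-normalised CPM of the 8 genes in heart, 1 point per mouse, WT in grey and Taz-KD in red, with the mean and SD of 5 mice as bars and every axis starting at 0. Ddc, Dbh, Adra1a and Adra1b lie lower in every Taz-KD heart, Grk5 lies higher in every Taz-KD heart, and Th, Adrb1 and Chrm2 overlap.

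The enzymes around this chain differed among themselves. Pcbd1, which recycles the tetrahydrobiopterin cofactor of tyrosine hydroxylase, rose from 0.408 ± 0.168 to 1.34 ± 0.313 CPM (SD, n = 5; log2 fold change 1.71, adjusted p = 8.27e-04, edgeR). Pnmt, which turns noradrenaline into adrenaline, measured 1.31 ± 0.228 in WT and 1.05 ± 0.278 CPM in Taz-KD (SD, n = 5; adjusted p = 0.325, edgeR). Qdpr, another enzyme of cofactor recycling, had a log2 fold change of 0.18 (adjusted p = 0.0650, edgeR). Of the 7 synthesis genes tested apart from Dbh, 1 rose, 1 fell and 5 did not pass, with a median log2 fold change of 0.039.

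Breakdown of catecholamines showed the largest rise among the pathway genes. Maoa, the mitochondrial monoamine oxidase A that oxidises noradrenaline and serotonin, measured 6.28, 5.04, 6.51, 4.45 and 3.82 CPM in the WT hearts and 18.3, 52.7, 70.2, 33.2 and 27.8 CPM in the Taz-KD hearts. Every Taz-KD heart lay above every WT heart, with R2 the lowest of them and R1796 the highest. The log2 fold change of Maoa was 2.95 (SE 0.37, adjusted p = 4.17e-04, edgeR). Maob, its paralog, fell from 38.2 ± 7.25 to 25.1 ± 4.60 CPM (SD, n = 5; log2 fold change -0.61, adjusted p = 0.0114, edgeR). Slc22a3, a transporter that takes up catecholamines outside neurons, fell from 6.01 ± 1.54 to 3.12 ± 0.535 CPM (SD, n = 5; log2 fold change -0.95, adjusted p = 0.00238, edgeR). The other 4 storage, uptake and breakdown genes tested did not pass in edgeR, among them Cyb561, an electron carrier of the storage vesicle that DESeq2 called (log2 fold change -0.49, adjusted p = 0.0831, edgeR), and Slc18a2, the vesicle transporter that loads monoamines (0.062, adjusted p = 0.787). The list had a median log2 fold change of 0.062 over the 7 genes tested.

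Markers of the cells that Dbh usually marks were compared in the same hearts. The sympathetic genes Th, Npy, Chga and Scg2 had at most 10 counts in any WT heart and at most 5 in any Taz-KD heart. Slc6a2, the noradrenaline transporter of nerve endings, had 0.303 ± 0.271 in WT and 0.208 ± 0.0856 CPM in Taz-KD (SD, n = 5) and was too low to be tested. The 3 sympathetic markers that could be tested, Slc18a2, Phox2a (log2 fold change -0.10, adjusted p = 0.820, edgeR) and Gal (-0.67, adjusted p = 0.250, edgeR), gave 0 calls in edgeR, 0 in DESeq2, 0 in limma-voom and 0 at an unadjusted p under 0.05. The summed list without Dbh ran from 6.83 to 12.7 in WT and from 8.45 to 10.3 CPM in Taz-KD, and the genotypes overlapped. Slc18a2 alone ran from 4.58 to 7.22 CPM in WT and from 4.78 to 6.78 CPM in Taz-KD hearts. It was a large part of that sum, so the overlap says little of the genes with few counts. Of the general neuron markers, Snap25 and Syt1 had at most 2 counts in a heart. The sum of that list did not overlap (8.31 to 13.8 CPM in WT, 27.2 to 55.9 CPM in Taz-KD), and Uchl1, a ubiquitin hydrolase abundant in neurons and made in other cells too, had the highest level in it. Uchl1 alone ran from 3.57 to 7.37 CPM in WT and from 22.8 to 48.9 CPM in Taz-KD hearts. It made up most of the Taz-KD sum, so the higher sum mainly reflects Uchl1 and not the list as a whole. An antisense gene, Uchl1os, overlaps Uchl1. Uchl1 rose from 5.36 ± 1.43 to 32.5 ± 11.5 CPM (SD, n = 5; log2 fold change 2.60, adjusted p = 7.37e-05, edgeR), while Stmn2 (-0.39, adjusted p = 0.105) and Tubb3 (1.16, adjusted p = 0.140) did not pass.

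Cholinergic and glial markers were read in the same way. Chat, Slc18a3, Slc5a7, Chrna3 and Chrnb4, which mark cholinergic neurons, had at most 2 counts in a heart of either genotype. Ache, the enzyme that splits acetylcholine, was the 1 tested gene of that list and fell from 4.52 ± 0.647 to 2.82 ± 0.327 CPM (SD, n = 5; log2 fold change -0.68, adjusted p = 0.00242, edgeR). Of 7 Schwann cell markers tested 0 passed in edgeR or in limma-voom, 1 in DESeq2, and 1 had an unadjusted p under 0.05 (Gfra3, log2 fold change -0.64, adjusted p = 0.0624). Their sum ran from 61.4 to 123 in WT and from 70.9 to 107 CPM in Taz-KD. Of 7 tested factors that guide innervation, 0 passed in edgeR, DESeq2 or limma-voom and 0 had an unadjusted p under 0.05. Nrtn, a survival factor for parasympathetic neurons, had a log2 fold change of 0.22 (SE 0.13, adjusted p = 0.245, edgeR).

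Of 5 tested pacemaker markers 2 fell in edgeR and limma-voom, and DESeq2 called 3. The sum of the list was 37.0 to 55.9 in WT and 26.7 to 32.1 CPM in Taz-KD, without overlap. Hcn4, the channel of the pacemaker current, fell from 9.34 ± 0.748 to 4.24 ± 1.38 CPM (SD, n = 5; log2 fold change -1.14, adjusted p = 0.00104, edgeR), and Tbx3, a transcription factor of the conduction system, from 24.1 ± 3.93 to 16.8 ± 1.52 CPM (SD, n = 5; log2 fold change -0.53, adjusted p = 0.00400, edgeR). The other 3 did not pass in edgeR, among them Tbx18 at -0.09 (adjusted p = 0.694, edgeR) and Shox2 at -0.022 (SE 0.38). The atrial marker sums ran from 43.2 to 201 in WT and from 110.3 to 536 CPM in Taz-KD, and of the 5 tested 0 passed in edgeR, DESeq2 or limma-voom and 0 had an unadjusted p under 0.05. The median log2 fold change of these 5 atrial markers was 2.07. Of the other cell type lists in heart, 1 of 6 tested cardiomyocyte markers fell (Pln), 2 of 4 endothelial markers fell (Pecam1 and Tie1), 1 of 4 skeletal muscle markers rose (Acta1), 1 of 4 adipocyte markers rose (Cidea), and none of 5 fibroblast and 4 smooth muscle markers passed, in DESeq2 and limma-voom as in edgeR, nor had any an unadjusted p under 0.05. The part of these marker differences in the values of Dbh, Ddc and the receptors was not tested.

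**Figure D2:**
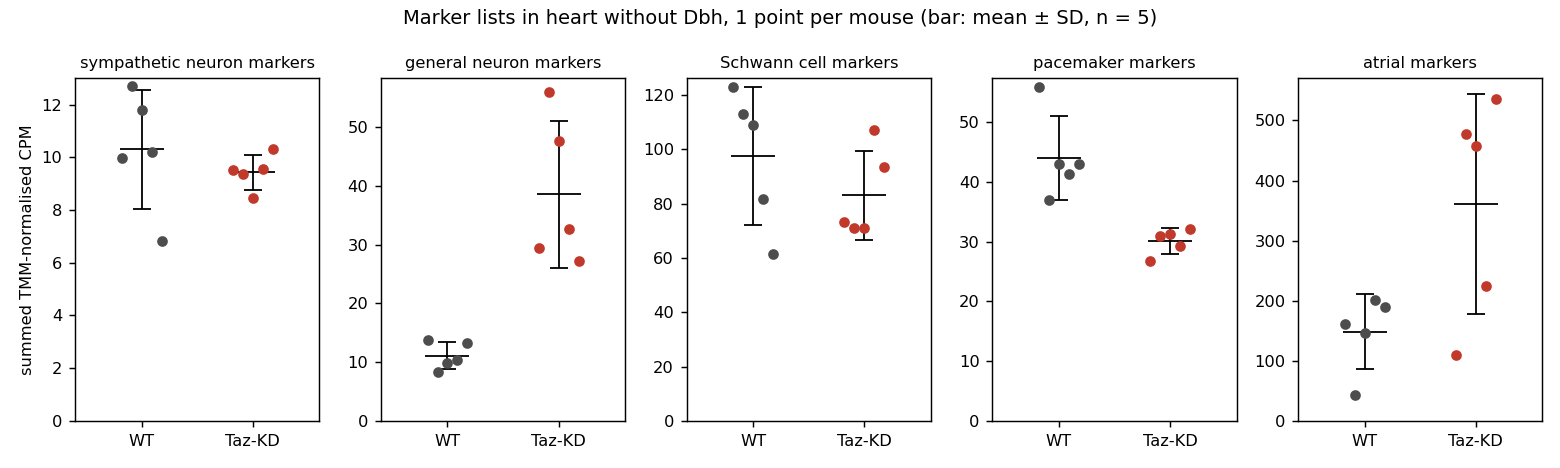
Summed TMM-normalised CPM of 5 marker lists in heart, with Dbh left out, 1 point per mouse, WT in grey and Taz-KD in red, and the mean and SD of 5 mice as bars. The sympathetic sum, of which Slc18a2 is a large part, and the Schwann cell sum overlap. The general neuron sum, which in Taz-KD is mostly Uchl1, is higher and the pacemaker sum lower in every Taz-KD heart. The atrial sum spreads widely, with 4 Taz-KD hearts above every WT heart.

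Both alpha1 receptors fell in Taz-KD hearts, and the beta1 receptor did not pass the test. Adra1a (ENSMUSG00000045875, chr14:66635251-66771168, plus strand) measured 55.3, 71.4, 77.7, 69.3 and 56.9 CPM in the WT hearts and 41.8, 24.3, 28.9, 38.6 and 35.0 CPM in the Taz-KD hearts. The genotypes did not overlap. The level fell to 0.510 times that of WT (log2 fold change -0.97, SE 0.15, adjusted p = 7.36e-04, edgeR), and the exact two-sided permutation test gave p = 0.00794, the smallest that the 252 ways of choosing 5 of 10 hearts allow.

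Adra1b (ENSMUSG00000050541, chr11:43774606-43901210, minus strand) measured 30.3, 28.2, 26.2, 24.7 and 26.2 CPM in the WT hearts. In the Taz-KD hearts it measured 8.02, 11.3, 9.03, 17.0 and 16.8 CPM. The WT hearts lay close together, and the Taz-KD hearts were all lower, with R1797 and R1798 above the other 3. Adra1b fell to 45.8% of the WT mean (log2 fold change -1.13, SE 0.20, adjusted p = 0.00204, edgeR; exact two-sided permutation p = 0.00794).

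Adrb1 (ENSMUSG00000035283, chr19:56722199-56733113, plus strand) measured 26.5, 22.0, 18.6, 26.1 and 22.8 CPM in WT and 19.6, 24.1, 20.1, 17.2 and 21.8 CPM in Taz-KD hearts. The ranges overlapped, and 1 Taz-KD heart was below all WT hearts. The log2 fold change was -0.18 with a 95% interval from -0.41 to 0.063 (adjusted p = 0.277, edgeR; exact two-sided permutation p = 0.190). Within single hearts, the ratio of Adra1a to Adrb1 CPM was 2.08 to 4.19 in WT and 1.01 to 2.25 in Taz-KD.

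The adrenergic receptors as a family held 4 falls and no rise among the 7 tested in heart, and their median log2 fold change was -0.45. Among them besides the alpha1 pair, Adra2b, an alpha2 receptor that couples to Gi, fell from 2.84 ± 0.351 to 1.94 ± 0.300 CPM (SD, n = 5; log2 fold change -0.55, adjusted p = 0.0171, edgeR). Adra1d (-0.21, adjusted p = 0.647) and Adra2c (-0.45, adjusted p = 0.399) did not pass, as Adrb1 did not. Adra2a and Adrb3 were too low to be tested, and Adrb3, the beta3 receptor known from fat cells, reached 2.29 CPM at most.

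Receptor kinases split in both directions, with Grk5 the largest change. Grk5 (ENSMUSG00000003228, chr19:60889749-61095968, plus strand) measured 44.8, 38.9, 43.3, 42.3 and 45.2 CPM in the WT hearts and 85.8, 96.1, 85.7, 68.9 and 81.7 CPM in the Taz-KD hearts. The lowest Taz-KD heart, R1797, lay well above the highest WT heart. Grk5 rose 1.95-fold (log2 fold change 0.96, SE 0.082, adjusted p = 4.74e-06, edgeR; exact two-sided permutation p = 0.00794). Within single hearts, the ratio of Grk5 to Adrb1 CPM was 1.62 to 2.33 in WT and 3.75 to 4.38 in Taz-KD.

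Of the 7 receptor kinases and arrestins tested in heart 3 rose and 2 fell, with a median log2 fold change of -0.10. Grk3 rose from 19.6 ± 1.29 to 24.3 ± 1.14 CPM (SD, n = 5; log2 fold change 0.31, adjusted p = 0.00370, edgeR) and Grk4 from 3.51 ± 0.491 to 4.64 ± 0.563 CPM (SD, n = 5; log2 fold change 0.40, adjusted p = 0.0385, edgeR). Grk6 fell from 24.8 ± 1.20 to 18.6 ± 1.28 CPM (SD, n = 5; log2 fold change -0.41, adjusted p = 6.38e-04, edgeR). Arrb2, an arrestin that binds phosphorylated receptors, fell by 0.28 on the log2 scale (adjusted p = 0.0417, edgeR). Grk2, the other main cardiac receptor kinase, measured 56.8 ± 3.07 and 53.1 ± 3.21 CPM (SD, n = 5; log2 fold change -0.10, adjusted p = 0.261, edgeR), and Arrb1 had a log2 fold change of -0.26 (adjusted p = 0.241, edgeR).

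**Figure D3:**
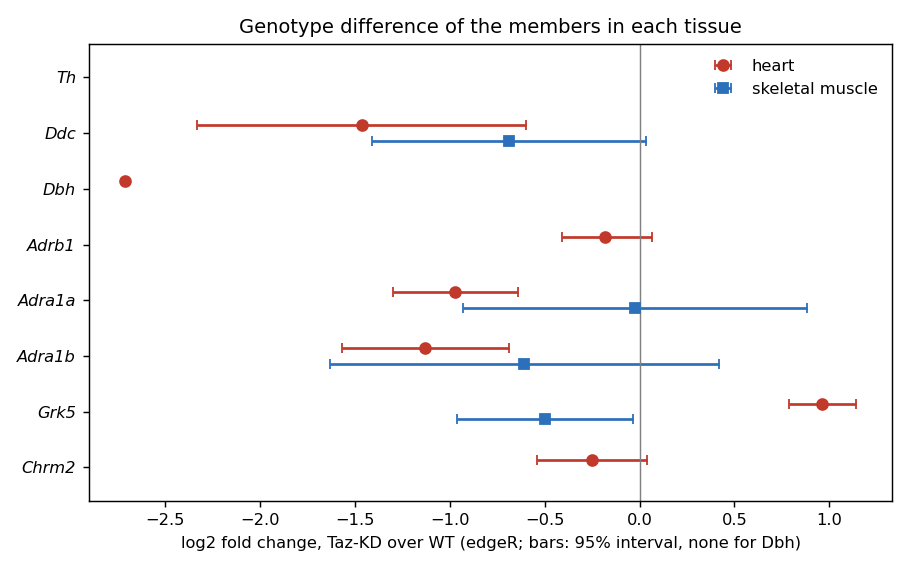
Log2 fold change of Taz-KD over WT for the members tested in heart (red circles) and skeletal muscle (blue squares), with 95% intervals except for Dbh, which was picked for its value. Th was tested in neither tissue, and Dbh, Adrb1 and Chrm2 have no muscle value. Grk5 is at 0.96 in heart and -0.50 in muscle.

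The muscarinic receptor itself did not pass, while both subunits of its potassium channel changed in opposite directions. Chrm2 (ENSMUSG00000045613, chr6:36388084-36528414, plus strand) measured 168, 242, 174, 169.6 and 183 CPM in the WT hearts and 141, 152, 146, 141 and 209 CPM in the Taz-KD hearts. In each genotype 1 heart was far above the others, R1791 in WT and R1798 in Taz-KD, and 4 of the 5 Taz-KD hearts lay below every WT heart. The log2 fold change was -0.25, with a 95% interval from -0.54 to 0.037 (adjusted p = 0.195, edgeR; exact two-sided permutation p = 0.143). Without R1798 Chrm2 passed (log2 fold change -0.37, adjusted p = 0.0245, edgeR), the lowest adjusted p in a range up to 0.411 over the alternatives. Over 142 exonic bases Chrm2 shares its place with other annotated genes, Mir490 on its own strand and 9330158H04Rik on the opposite one being the genes that overlap it, and the strand setting used in counting was not stated.

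Kcnj3 and Kcnj5 encode the subunits of the channel that acetylcholine opens in atrial and nodal cells. Kcnj3 measured 94.4, 136, 86.5, 99.9 and 106 CPM in the WT hearts and 52.1, 38.6, 44.7, 50.2 and 89.8 CPM in the Taz-KD hearts. R1798, the heart with the highest Taz-KD value of Chrm2, was also the one whose Kcnj3 reached the WT range. Kcnj3, of which 1621 exonic bases overlap other genes, fell (log2 fold change -0.92, SE 0.22, adjusted p = 0.0123, edgeR). Kcnj5 rose from 70.4 ± 8.45 to 109 ± 17.7 CPM (SD, n = 5; log2 fold change 0.64, adjusted p = 0.00148, edgeR), and every Taz-KD heart was above every WT heart. The ratio of Kcnj5 to Kcnj3 CPM within a heart was 0.597 to 0.830 in WT and 1.53 to 2.92 in Taz-KD. Of the other muscarinic receptors, Chrm3 had a log2 fold change of -0.29 (adjusted p = 0.571, edgeR), and Chrm1, Chrm4 and Chrm5 were too low to be tested, with at most 10 counts in a heart.

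Among the Gq, cyclase and early cyclic AMP genes all calls in edgeR were falls. Of all genes tested in heart, 10.3% passed as lower and 14.4% as higher, and whether these lists depart from those shares was not tested. Of 12 tested genes of the alpha1 and Gq pathway 5 fell and 0 rose: Rgs4, which speeds the switching off of Gq and Gi (log2 fold change -0.67, adjusted p = 0.00198, edgeR), its relative Rgs5 (-0.38, adjusted p = 0.00731), and the phospholipases Plcb2 (-0.70, adjusted p = 0.00605), Plcb1 (-0.25, adjusted p = 0.0136) and Plcb3 (named after its value was seen, -0.27, adjusted p = 0.0376). Of 18 tested adenylyl cyclases, phosphodiesterases and protein kinase A subunits 5 fell and 0 rose, with Prkaca, the catalytic subunit (-0.26, adjusted p = 0.00626, edgeR), Adcy4 (-0.41, adjusted p = 0.0138) and Adcy9 (-0.19, adjusted p = 0.0189) among them. The main cardiac cyclase Adcy6, which DESeq2 called, had a log2 fold change of -0.22 (adjusted p = 0.0762, edgeR) and the isoform Adcy5 one of 0.19 (adjusted p = 0.418, edgeR). Of 8 G protein alpha subunits 0 passed in edgeR, DESeq2 or limma-voom, and 0 had an unadjusted p under 0.05. Gnas, the stimulatory subunit, stood at -0.082 with a SE of 0.062, and Gnaq, the subunit that serves the alpha1 receptors, at 0.11 with a SE of 0.055. Of 11 genes that cyclic AMP induces early, Crem, a CRE binding factor, fell (-0.30, adjusted p = 0.0205, edgeR) and 10 did not pass. Pln, phospholamban, the calcium pump regulator that protein kinase A phosphorylates, fell from 3601 ± 369 to 1947 ± 263 CPM (SD, n = 5; log2 fold change -0.89, adjusted p = 7.36e-05, edgeR). Up to 1785 of the 2759 exonic bases of Pln overlap other annotated genes. Those genes, Cep85l and Gm47644, lie on the opposite strand, and the strand setting used in counting was not stated.

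Over the 10 pathway lists together, without the members, 82 genes were tested in heart, of which 5 rose and 18 fell. This is 28.0%, close to the 24.6% of all genes, and the median log2 fold change was -0.11 against -0.016. The plot of the pathway lists gives every tested gene.

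**Figure D4:**
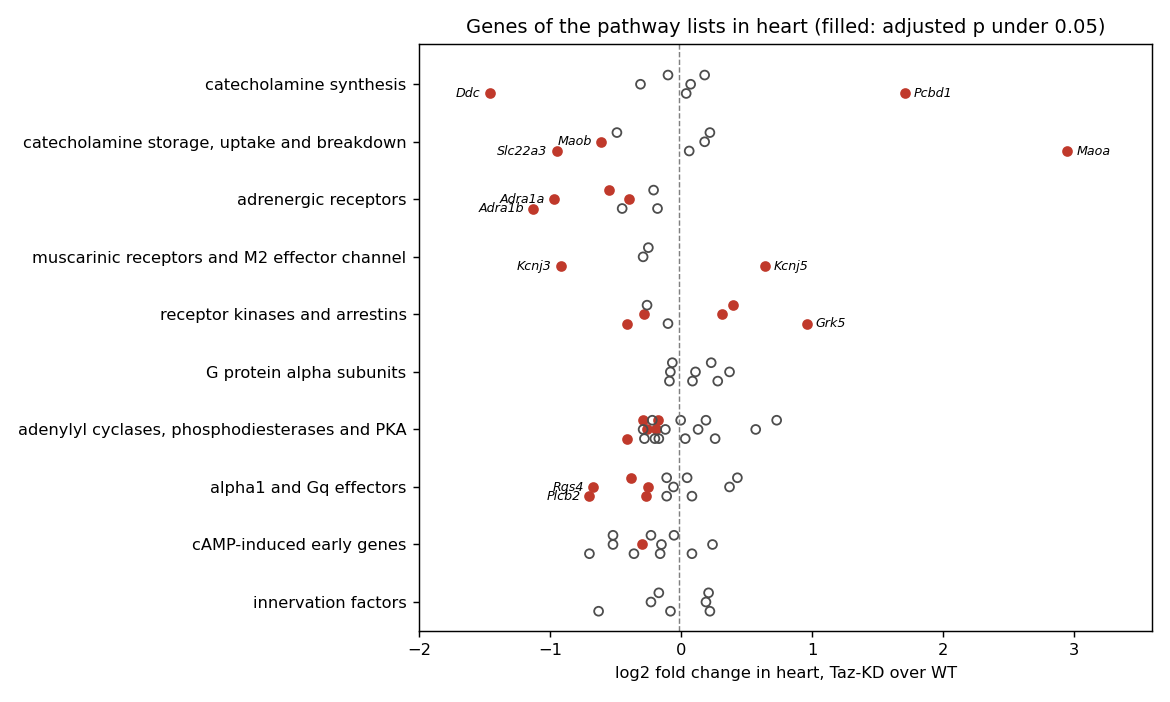
Log2 fold change in heart of each tested gene of the 10 pathway lists (rows), members other than Dbh included, filled red where the adjusted p was under 0.05 and open otherwise, with the median of all tested genes as a dashed line. Maoa and Pcbd1 lie farthest right, Ddc and Adra1b farthest left, and the filled genes of the adrenergic, adenylyl cyclase and Gq rows are all left of 0.

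In skeletal muscle none of the members passed, and 4 of the 8 were too low to be tested. In simulated counts with known changes in randomly chosen genes, the test called 2 of 100 changes of 1.5-fold in muscle and 46 of 100 in heart. Of 100 changes of 3-fold it called 65 in muscle and 90 in heart. A gene that did not pass in muscle is thus not shown to be unchanged. Of 16145 genes tested in muscle 3, or 0.0186%, passed in either direction (2408 at an unadjusted p under 0.05), Taz among them, and in 2.14% the libraries of the genotypes did not overlap. The 4 tested members gave 0 calls in edgeR, DESeq2 and limma-voom, and 1, Grk5, had an unadjusted p under 0.05. No tested member was without overlap.

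Dbh had 1 count in A40 and 0 in the other 4 WT muscles, and 1 count in A39, 2 in A52 and 0 in the other 3 Taz-KD muscles. The ratio of 2.50 had a 95% counting interval from 0.201 to 131, so that no difference of Dbh could be detected in muscle. Th was uneven: the WT muscles A33, A40, A51, A55 and A57 had 71, 1, 0, 2 and 1 counts, and the Taz-KD muscles A34, A39, A52, A56 and A58 had 1, 240, 9, 2 and 44. A single muscle held most Th counts of each genotype, A33 in WT, the muscle with the highest adipocyte sum, and A39 in Taz-KD, the one with the highest adipocyte sum of its genotype at 80.6 CPM. The other muscles did not follow that order. WT muscles A55 and A51, with adipocyte sums of 346 and 217 CPM, had 2 and 0 Th counts, and Taz-KD muscle A58, at 26.7 CPM, had 44. The part of other tissue in these samples was not tested.

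Grk5 ranged from 3.57 to 7.04 CPM in the WT muscles, with a median of 4.48, and measured 3.32, 2.68, 3.18, 4.05 and 4.22 CPM in the Taz-KD muscles. The highest WT values, 7.04 and 5.54 CPM, were in A33 and A55, the muscles that stood apart. The log2 fold change was -0.50 (SE 0.21, adjusted p = 0.323, edgeR; exact two-sided permutation p = 0.0556). The Grk5 value in muscle was -0.33 without A33 and -0.21 without A33 and A55. Ddc measured 0.371, 0.597, 0.671, 0.281 and 0.736 CPM in WT and 0.334, 0.209, 0.413, 0.432 and 0.255 CPM in Taz-KD, with a log2 fold change of -0.69 (SE 0.33, adjusted p = 0.351, edgeR).

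Adra1a ranged from 0.374 to 2.34 CPM in WT muscle and from 0.882 to 2.04 CPM in Taz-KD muscle (log2 fold change -0.026, 95% interval from -0.93 to 0.88, adjusted p = 0.976, edgeR). Adra1b ranged from 0.252 to 0.680 and from 0.0589 to 0.451 CPM (log2 fold change -0.61, 95% interval from -1.63 to 0.42, adjusted p = 0.510, edgeR). The Adra1b value was -0.27 without A33, its highest WT muscle, -0.36 without A34, its lowest Taz-KD muscle, and -0.94 without A58, its highest Taz-KD muscle. Adrb1 had 3 to 51 counts per WT muscle, with A33 the highest, and 3 to 13 per Taz-KD muscle. Chrm2 had 1 to 7 and 0 to 4 counts. Adrb3 was at 31.7 CPM in A33, the muscle with the highest adipocyte sum, at 0.298 to 4.94 CPM in the other WT muscles and at 1.86 CPM at most in Taz-KD (log2 fold change -3.59, SE 1.25, adjusted p = 0.311, edgeR). The 5 adipocyte markers tested in muscle had a median log2 fold change of -3.34, and their part in the value of Adrb3 was not tested. Of 85 tested pathway genes that are no members 0 passed in edgeR or limma-voom, 1 passed in DESeq2 (Slc22a3), and 25 had an unadjusted p under 0.05.

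**Figure D5:**
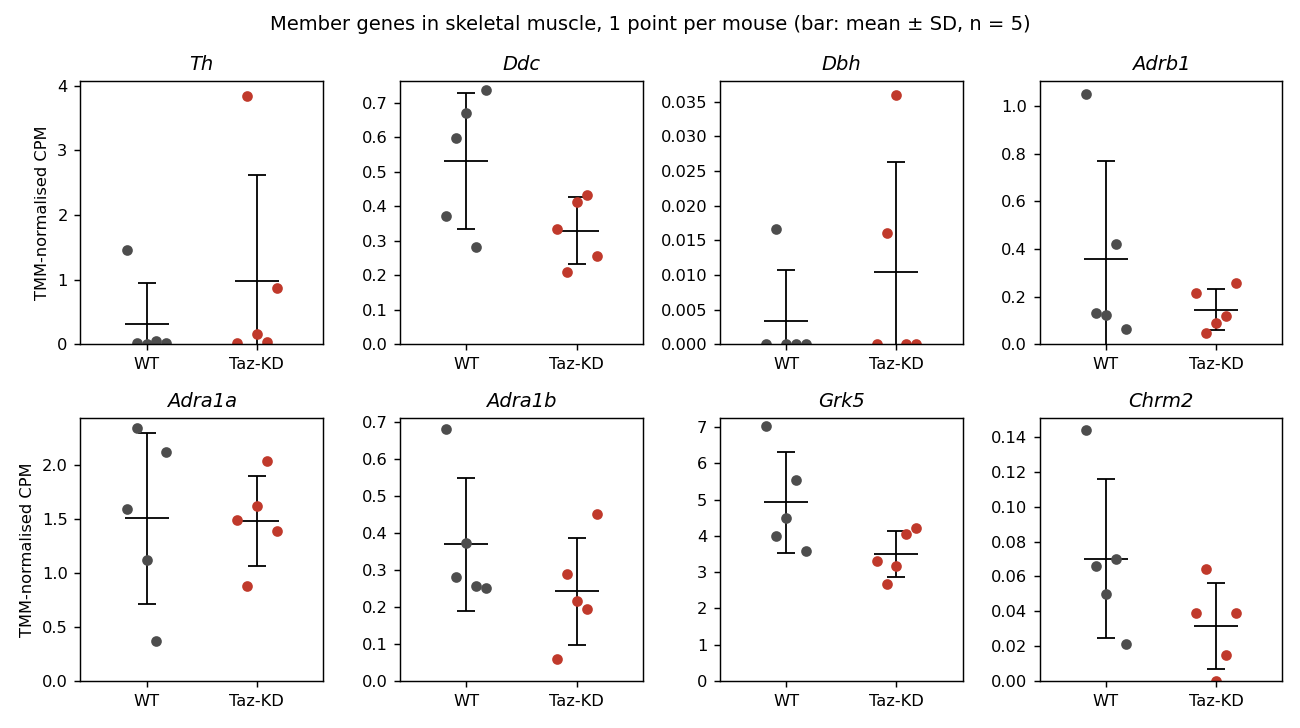
TMM-normalised CPM of the 8 genes in skeletal muscle, 1 point per mouse, WT in grey and Taz-KD in red, with the mean and SD of 5 mice as bars and every axis starting at 0. The genotypes overlap in every panel, and single muscles carry the highest values of Th, at 1.46 in WT and 3.85 CPM in Taz-KD.

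Whether the genotype difference itself differed between the tissues was tested as an interaction over all 20 libraries. Of 20612 genes tested 4.62% passed, and of the 6 members apart from Dbh 1 did, Grk5. Its log2 fold change in heart exceeded that in muscle by 1.38 (SE 0.19, adjusted p = 3.07e-04, edgeR), with 0.94 in heart and -0.44 in muscle in this fit. Leaving out any single library, or R3, R1793, A33 and A55 together, kept its adjusted p between 4.30e-09 and 0.00257, a range that covers all alternatives. The alpha1 receptors did not pass (Adra1a with a 95% interval from -1.88 to -0.11, adjusted p = 0.194, edgeR; Adra1b -0.60, interval from -1.55 to 0.35, adjusted p = 0.504), nor did Ddc (-0.82, interval from -1.97 to 0.32, adjusted p = 0.432). Their falls are thus not shown to be particular to the heart. Adrb1 (1.05, adjusted p = 0.386, and 0.14 without muscle A33) and Chrm2 (0.80, adjusted p = 0.463, and 0.41 without A33) rested on few muscle counts.

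Levels of the genes can be set side by side only per length, here as CPM per kilobase of merged exons. In WT hearts Chrm2 was highest at 31.0 ± 5.16 (SD, n = 5). Adra1b (8.02 ± 0.641), Adra1a (7.58 ± 1.11), Adrb1 (6.86 ± 0.964) and Grk5 (6.08 ± 0.356) followed, and each overlapped with the next. Ddc (1.64 ± 0.308), Dbh (0.484 ± 0.236) and Th (0.0113 ± 0.0179) came after them, each without overlap with the next. In Taz-KD hearts Grk5 stood at 11.9 ± 1.39 and Adra1b and Adra1a at 3.67 ± 1.25 and 3.87 ± 0.815 CPM per kilobase (SD, n = 5). In WT muscle Grk5 was highest at 0.698 ± 0.197 CPM per kilobase and did not overlap with Adra1a, the next at 0.173 ± 0.0908. From Adra1a down to Dbh, the lowest at 0.00123 ± 0.00275, neighbours overlapped. Both tissues came from different mice and separate tables, so levels were not tested between them.

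The genes whose levels followed Dbh most closely within the genotypes were sought among 16262 genes of at least 1 CPM in the 10 hearts, after each genotype's mean of log2(CPM + 0.5) was taken off. Mob3b (Pearson r = 0.95) and Zfp472 (0.93) came first. As the top of 16262 values over 10 hearts, resting on few Dbh counts, both are a description with no test. Neither passed the test between genotypes (adjusted p = 0.494 and 0.987, edgeR). With 0.1 in place of 0.5 the leading genes were Gm5454, Cntn2 and Gm4787, and neither of the former was among them, so the order depends on how the low Dbh counts are treated. Among the members, r with Dbh ran from -0.16 for Adra1a to 0.44 for Chrm2, with 0.31 for Ddc. All points come from the same 10 libraries.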

How the data were processed

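RNA was measured in 20 libraries, 5 per genotype and tissue, each 1 mouse. Per the labels and the study's methods, the authors made strand-marking libraries from total RNA without ribosomal RNA and sequenced both ends (150 bp). STAR aligned the reads to GRCm38 (mm10), and featureCounts 1.6.4 assigned them to genes. The deposited values are unnormalised counts. The authors' own tests used DESeq2 2.11.40.6. The annotation release, strand setting and treatment of multiply mapped reads are not stated in the sources.

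From these counts, filterByExpr by genotype kept 19486 genes in heart and 16145 in muscle. TMM-scaled counts were tested with edgeR 4.0.16 in R 4.3.3 (robust quasi-likelihood test, Benjamini-Hochberg adjustment over all tested genes, threshold 0.05). Standard errors were derived from the F statistic. For single genes an exact permutation test, two-sided, of mean log2(CPM + 0.5) was added. Every column was mapped to a mouse by its label. Scripts were tested on simulated data. Symbols, positions and merged exon lengths came from GENCODE M21, which held 46488 of the heart and 53620 of the muscle identifiers.

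Members and the 22 gene lists were chosen with earlier results of these data known. Named were all members, Taz, every tested adrenergic, muscarinic, receptor kinase and arrestin gene, up to 4 genes with the smallest heart p and up to 2 with the smallest muscle p of each other list, and the 3 genes most like Dbh. Some genes this rule names are not reported here, and Pnmt, Qdpr, Adcy5, Adcy6, Tbx18, Shox2 and the genes at other offsets were named after their values were seen. Alternatives were DESeq2 1.42.0, limma-voom 3.58.1, other scalings and filters, no robust dispersion, one fit of all libraries and leaving out libraries. Alternatives without R3, R1793, A33 and A55 were chosen after seeing the data.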

Additional observations from a re-analysis of the deposited data

Results flagged for a closer look

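Grk5 differed between the tissues in its genotype difference, by 1.38 on the log2 scale (adjusted p = 3.07e-04, edgeR interaction). It was higher in 5 of 5 Taz-KD hearts than in every WT heart, and lower in 3 of 5 Taz-KD muscles than in every WT muscle.

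A library lay far from the other 4 of its group in 5 of the 30 groups of a member that were examined, where chance flags about 1 in 20. That share holds for normally distributed values, which counts near 0 such as those of Th are not, so 5 of 30 is a description only. Chrm2 was at 242 CPM in WT heart R1791 against 168 to 183 in the others, and at 209 CPM in Taz-KD heart R1798 against 141 to 152. Th was at 1.46 CPM in WT muscle A33 against at most 0.0468, and at 3.85 CPM in Taz-KD muscle A39 against at most 0.864. Adra1b was at 0.680 CPM in WT muscle A33 against 0.252 to 0.373.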

How the results depend on the processing

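The members called in heart numbered 3 to 5 of those tested over 21 alternatives, against 4, and 3 without R3 and R1793 or without a low-count filter, where Ddc was lost. Adra1a, Adra1b and Grk5 passed in all 21. In muscle 0 members passed under each of 20 alternatives. The interaction called 1 member under each of 30, Grk5. The 23 pathway genes called in heart became 7 in one fit of all 20 libraries, which shares one dispersion per gene between the tissues, and 16 to 22 when 1 library was left out. In muscle the 0 pathway genes became 1 with DESeq2 and 1 in the fit of all 20 libraries (Plcb1, log2 fold change -0.75). The log2 fold change of Adra1a in muscle, -0.026, turned to 0.12 with limma-voom and 0.00024 in the fit of all 20 libraries, and ranged from -0.27 to 0.20 when 1 muscle was left out (0.20 without A40, 0.13 without A57, 0.11 without A39). The interaction of Adrb1 turned to -0.58 without R3, R1793, A33 and A55. The cause of these changes was not tested. The log2 fold change of Dbh in heart ran from -2.86 to -2.48, a description only, since Dbh was picked for its fall in these same hearts. No paired analysis was possible because mice of the groups share no replicate numbers. Th in both tissues and Dbh, Adrb1 and Chrm2 in muscle did not pass the filter on low counts, and technical and animal spread cannot be split with 1 library per mouse.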
